A study of Mus musculus with 6 samples.

Results

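Stathmin 1 (Stmn1) and 9 tubulin genes were followed in peritoneal macrophages sorted by the activity of the p16 promoter. The members are 10 of 54532 genes in the deposited table, matched by gene symbol: Stmn1, the alpha-tubulins Tuba1a, Tuba1b, Tuba1c and Tuba4a, the beta-tubulins Tubb5, Tubb2a, Tubb4b and Tubb6, and the gamma-tubulin Tubg1. All 10 were found, and all 10 passed the filter on low values. They were chosen by their FPKM values in this same comparison of p16High with p16Low, where Stmn1 was already known as one of the largest differences. The differences of the members between the fractions are therefore a description, and no p-value is given for them.

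All mice were C57BL/6 animals carrying p16-Cre together with Rosa26-mtmg and were 12 months old. In the mTmG reporter, membrane tdTomato gives way to membrane EGFP once Cre has acted, so both fractions carry the same alleles and differ in the colour of the cells. F4/80+ cells of the peritoneal lavage were enriched with beads before flow sorting. The EGFP cells form the p16High group and the tdTomato cells the p16Low group, with 3 libraries of total RNA each. EGFP marks Cre activity at any earlier time, not p16 protein at harvest. Whether each library came from its own animal or from a pool is not stated in the labels, so errors and tests cover the spread between these libraries, which may be technical.

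Microtubules are hollow polymers of paired alpha- and beta-tubulin, and gamma-tubulin, in ring-shaped complexes, starts their growth. Stathmin binds free tubulin pairs and promotes the shrinkage of microtubules, and mitotic kinases switch it off by phosphorylation so that a spindle can form. It is abundant in many dividing cells. Cells hold several tubulin genes, called isotypes, whose proteins differ most in the acidic tail at the carboxyl end, and free tubulin feeds back on the stability of tubulin mRNA.

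The last 60 coding bases of 3 beta-tubulin genes, from GENCODE transcripts of GRCm38, are a stretch where these isotypes differ more than before it. They run 5′ to 3′ on the coding strand, and capitals mark bases not matched in an alignment to Tubb5. The ends lie on the minus strand at chr17:35834982-35835041 for Tubb5, chr13:34074468-34074527 for Tubb2a and chr2:25222308-25222367 for Tubb4b.
Tubb5: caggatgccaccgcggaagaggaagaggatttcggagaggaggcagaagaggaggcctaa
Tubb2a: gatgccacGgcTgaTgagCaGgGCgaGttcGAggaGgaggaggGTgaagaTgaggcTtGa
Tubb4b: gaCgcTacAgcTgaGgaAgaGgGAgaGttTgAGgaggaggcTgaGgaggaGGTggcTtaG

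Tubb2a and Tubb4b differed from Tubb5 at 16 and 20 of the 60 bases and were 84.6% and 82.2% identical to it over the coding sequence. The 60 bases differed at 26.7% and 33.3%, and the coding bases before them at 14.9% and 17.1%. The alpha-tubulins were closer to each other: over the coding sequence Tuba1b was 98.3% identical to Tuba1a, 97.9% to Tuba1c and 85.0% to Tuba4a, which is known as the alpha-tubulin made without the terminal tyrosine.

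These identities bear on the values. Of all 50-base windows of the transcript examined, 83.1% in Tuba1b, 75.5% in Tuba1a and 61.0% in Tuba1c also occurred, letter for letter, in an annotated transcript of another gene. Reads can be lost or split among these 3 genes, so their separate levels are uncertain. Lost reads would also lower their sum. The labels and file headers do not tell how the authors treated such reads. The share was 0.115% in Tubb5 and 0% in Tubb6, the abundant beta-tubulins. In Tubb4b it was 55.5%, mainly with the processed copy Tubb4b-ps1, which stood at 0.689 to 1.30 FPKM, and in Tubb2a it was 49.6%, mainly with Tubb2b, at 0.152 to 0.403 FPKM. In Tuba4a it was 48.8%, nearly all with transcripts of the kinase gene Stk16 on either strand, and Stk16 stood at 22.5 to 30.6 FPKM, so the Tuba4a level is uncertain too. In Stmn1 it was 36.5%, mainly with Gm11223, which held 2 to 10 reads in a library, against 94 to 977 reads on Stmn1. In Tubg1 it was 14.1%, with Tubg2 as the leading partner.

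The libraries held 16.52 to 20.87 M reads, worked back from the deposited FPKM values (fragments scaled by gene length and library depth), and 16831 to 18211 genes above 0. Cdkn2a, whose products include p16, stood at 0.62, 0.933 and 1.71 FPKM in p16Low and at 7.01, 7.84 and 5.48 FPKM in p16High. This goes with the labels, but the value covers all transcripts of the gene and not that of p16 alone. p16Low replicate 2 stood apart: its correlations with the other libraries, on log2(FPKM + 1), were 0.956 to 0.967, against 0.984 to 0.991 among the other 5, and its mitochondrial reads made up 1.08% against 0.545% to 0.684%. For the members, differences that rest on it are given with and without it. All 9 macrophage markers were present in both groups, led by Lyz2 at 82291 ± 2609.9 FPKM (SD, n = 3) in p16Low and 75032 ± 734 FPKM (SD, n = 3) in p16High and by Adgre1, the gene of F4/80, at 1979 ± 644 and 2591 ± 163 FPKM. The log2 difference of Adgre1 was 0.45 over all 6 libraries and 0.14 without p16Low replicate 2, its lowest library at 1236 FPKM. None of the 9 macrophage markers passed the threshold used below in limma or limma-voom, where 2 had an unadjusted p under 0.05. Without p16Low replicate 2, 1 of them, Cd68, passed in limma, where 301 of all 10895 tested genes did.

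Stmn1 was 5.94 times lower in p16High, whereas the mean levels of the 9 tubulin genes in p16High were 0.756 to 1.18 times those in p16Low. Stmn1 (ENSMUSG00000028832, chromosome 4, 134468320 to 134473843, plus strand, GRCm38) stood at 46.7, 59.8 and 38.4 FPKM in p16Low replicates 1 to 3. In p16High it stood at 8.56, 8.55 and 7.27 FPKM. The p16High libraries lay close together and far below the lowest p16Low library, and p16Low replicate 2 was the highest of all. The means were 48.3 ± 10.8 and 8.13 ± 0.743 FPKM (SD, n = 3). The reads behind these levels numbered 675, 977 and 606 in p16Low and 127, 131 and 94 in p16High. On the scale of log2(FPKM + 1), p16High minus p16Low was -2.41 (SE 0.186, 95% interval -2.84 to -1.99) over all 6 libraries and -2.25 without p16Low replicate 2. Of the tested genes 1, Pclaf, had a more negative difference, at -2.44.

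**Figure D1:**
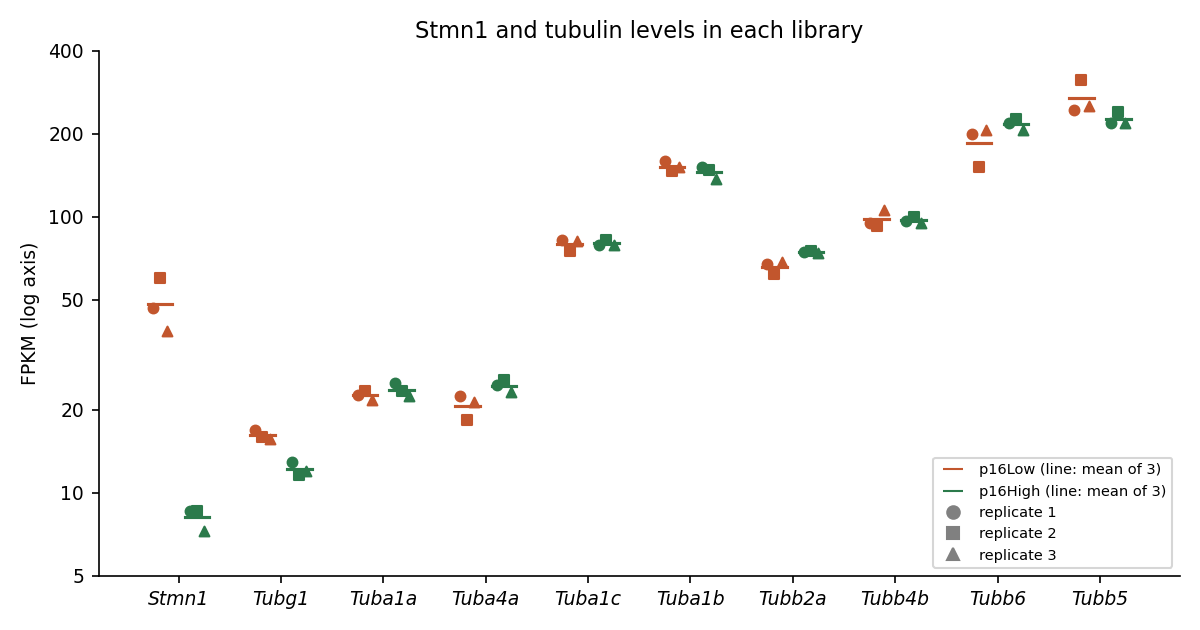
FPKM (log axis) of Stmn1 and the 9 tubulin genes in each library, with the mean of 3 libraries as a line and the marker shape giving the replicate number. Stmn1 lies at 38.4 to 59.8 FPKM in p16Low and 7.27 to 8.56 FPKM in p16High, whereas Tuba1b lies at 146 to 159 and 137 to 151 FPKM and Tubg1, the tubulin with the most negative difference, at 15.6 to 16.9 and 11.6 to 12.9 FPKM.

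The mean levels of the 4 alpha-tubulin genes in p16High were 0.957 to 1.18 times those in p16Low, and none passed the threshold. Tuba1b (ENSMUSG00000023004, chromosome 15, 98931425 to 98934565), the most abundant of them, stood at 159, 146 and 151 FPKM in p16Low and 151, 148 and 137 FPKM in p16High. The groups overlapped, and the log2 difference was -0.063 (SE 0.116). Tuba1c (ENSMUSG00000043091, chromosome 15, 99029891 to 99038110) stood at 82.3, 75.3 and 81.9 FPKM in p16Low and 79.2, 82.5 and 79.0 FPKM in p16High. Again the groups overlapped, and the 95% interval of the log2 difference ran from -0.26 to 0.28, and that of Stmn1 from -2.84 to -1.99. Tuba1a (ENSMUSG00000072235, chromosome 15, 98949837 to 98953703), a main alpha-tubulin of neurons, stood at 22.6, 23.4 and 21.6 FPKM against 24.9, 23.4 and 22.4 FPKM, also overlapping. Tuba4a (ENSMUSG00000026202, chromosome 1, 75214228 to 75219865) stood at 22.4, 18.3 and 21.3 FPKM in p16Low and 24.5, 25.6 and 23.2 FPKM in p16High. Its groups did not overlap, but the log2 difference of 0.23 (SE 0.145) had an interval of -0.10 to 0.56, and without p16Low replicate 2, the lowest library, it was 0.15.

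Among the beta-tubulin genes, the mean of Tubb5 was 1.20-fold lower and those of Tubb2a and Tubb6 were 1.13-fold and 1.17-fold higher in p16High, none past the threshold of an adjusted p of 0.05. Tubb5 (ENSMUSG00000001525, chromosome 17, 35833921 to 35838306), the class I beta-tubulin found in most cells, stood at 243, 314 and 253 FPKM in p16Low and 218, 239 and 219 FPKM in p16High. The groups did not overlap, and p16Low replicate 2, the library with the most Stmn1, also had the most Tubb5. As that library stood apart from the others, this is not read as Tubb5 following Stmn1. The log2 difference of Tubb5 was -0.25 (SE 0.136, 95% interval -0.56 to 0.058) and was -0.14 without that library.

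Tubb6 (ENSMUSG00000001473, chromosome 18, 67390717 to 67402748), the class V beta-tubulin, stood at 199, 152 and 206 FPKM in p16Low and 219, 227 and 207 FPKM in p16High. The groups did not overlap, with 206 and 207 FPKM as the nearest values, and p16Low replicate 2 lay far below the rest. The log2 difference was 0.24 (SE 0.146), and 0.10 without that library. Tubb2a (ENSMUSG00000058672, chromosome 13, 34074274 to 34078007), of class II, stood at 67.4, 61.9 and 68.3 FPKM in p16Low and 74.7, 75.3 and 74.0 FPKM in p16High. Its groups did not overlap, and the log2 difference was 0.18 (SE 0.12) over all 6 libraries and 0.14 without p16Low replicate 2. Tubb4b (ENSMUSG00000036752, chromosome 2, 25222160 to 25224702), of class IV, stood at 95.3, 93.0 and 106 FPKM against 96.5, 100.2 and 95.0 FPKM. Its groups overlapped, with a log2 difference of -0.01 (SE 0.12).

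Tubg1 (ENSMUSG00000035198, chromosome 11, 101119938 to 101126419), which encodes the main gamma-tubulin, had the most negative difference of the tubulin genes. It stood at 16.9, 15.9 and 15.6 FPKM in p16Low and at 12.9, 11.6 and 12.0 FPKM in p16High, with no overlap. The means were 16.1 ± 0.647 and 12.2 ± 0.643 FPKM (SD, n = 3), a 1.32-fold difference, and the log2 difference was -0.38 (SE 0.143, 95% interval -0.70 to -0.052). Unlike that of Tubb5, it was as large without p16Low replicate 2, at -0.39. Tubg1 did not pass the threshold over all genes. Its reads numbered 264 to 440 in a library, the fewest of the 9 tubulin genes.

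Stmn1 was therefore the 1 member of 10 past the threshold of limma's test over all genes, at a Benjamini-Hochberg adjusted p under 0.05. Over all 10895 tested genes that rule called 0.89%, with 0.716% lower and 0.174% higher in p16High, and since the set was chosen with this comparison known nothing is read from the count. None of the 9 tubulin genes was past that threshold in limma or in limma-voom on recovered reads, which is likewise a description. Of the 9, 2 were lower and 3 higher without overlap, where 7.45% and 8.4% of tested genes were. The median log2 difference was 0.0078 over the tubulins and 0.051 over all tested genes. With FPKM as deposited 5 tubulins were above 0 and 4 below, and with median-of-ratios scaling 4 and 5, as Tuba1c turned to -0.033. The 95% intervals of the 9 tubulin differences reached from -0.70 to 0.57, so the tubulin levels are not shown to be equal.

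**Figure D2:**
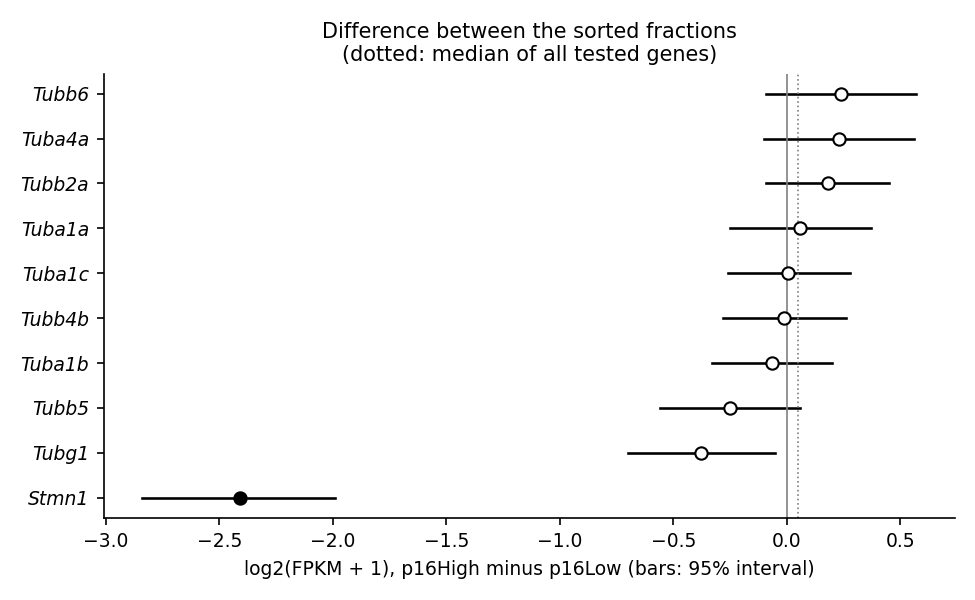
Difference in log2(FPKM + 1) between p16High and p16Low for the 10 genes, with 95% intervals from limma; the filled point passed the threshold over all genes and the dotted line is the median of all tested genes, 0.051. Stmn1 lies at -2.41 and the 9 tubulin genes between -0.38 and 0.24.

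FPKM is given per length, so levels of different genes can be set side by side, as far as the gene lengths used by the authors hold. The order is also uncertain where reads shared with other genes may have been lost, above all in Tuba1a, Tuba1b and Tuba1c. In p16High the order from the top was Tubb5 at 225 ± 11.9, Tubb6 at 217 ± 10.2, Tuba1b at 146 ± 7.26, Tubb4b at 97.2 ± 2.70, Tuba1c at 80.2 ± 1.96 and Tubb2a at 74.7 ± 0.615 FPKM (SD, n = 3), followed by Tuba4a, Tuba1a, Tubg1 and Stmn1. Tubb5 and Tubb6 overlapped there, as did Tuba4a and Tuba1a. In p16Low, Tubb5 at 269.8 ± 38.8 FPKM lay above Tubb6 at 186 ± 29.8 FPKM without overlap, while Tubb6 overlapped with Tuba1b and Tuba1a with Tuba4a. Stmn1 changed its place: in p16Low it lay between Tubb2a and Tuba1a, and in p16High it was the lowest of the 10, below every Tubg1 value. With 36.5% of the 50-base windows of Stmn1 shared with other genes, against 14.1% in Tubg1, this last place is uncertain too.

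The summed tubulin levels overlapped between the fractions. The alpha-tubulin genes summed to 287, 263 and 276 FPKM in p16Low and 279.7, 279.7 and 262 FPKM in p16High. The beta-tubulin genes summed to 605, 621 and 633 FPKM and to 608, 641 and 595 FPKM. The ratio of summed beta to summed alpha was 2.25 ± 0.13 in p16Low and 2.25 ± 0.0634 in p16High (SD, n = 3). Reads lost from windows shared with other genes would lower these sums, and such windows are most frequent in the Tuba1 genes. This ratio and the percentages below are therefore uncertain as absolute levels. Set against summed alpha-tubulin, Stmn1 stood at 16.3%, 22.7% and 13.9% in p16Low and at 3.06%, 3.06% and 2.77% in p16High. The level of Stmn1 relative to alpha-tubulin was thus lower in each p16High library than in any p16Low library.

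Within the summed beta-tubulin level, the share of Tubb5 was lower and that of Tubb6 higher in every p16High library than in any p16Low library. Tubb5 made up 40.1%, 50.6% and 39.9% of the summed beta-tubulin FPKM in p16Low and 35.8%, 37.3% and 36.9% in p16High. Tubb6 made up 33.0%, 24.4% and 32.6% against 36.0%, 35.4% and 34.7%. The highest Tubb5 share and the lowest Tubb6 share were both in p16Low replicate 2. Over all 6 libraries the share of Tubb5 differed by -6.90 percentage points and that of Tubb6 by 5.38, and without p16Low replicate 2 these were -3.36 and 2.59. The share of Tubb2a was 10.6% ± 0.599 in p16Low and 12.2% ± 0.375 in p16High, and that of Tubb4b was 15.8% in both.

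In the alpha-tubulin pool Tuba1b made up 55.3% ± 0.480 in p16Low and 53.2% ± 0.819 in p16High (SD, n = 3), and Tuba4a 7.50% ± 0.484 and 8.92% ± 0.199. Tuba1c, at 29.0% and 29.3%, and Tuba1a, at 8.21% and 8.60%, overlapped between the groups. Shares of 1 pool are tied to each other, so a lower share of one isotype raises the others.

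**Figure D3:**
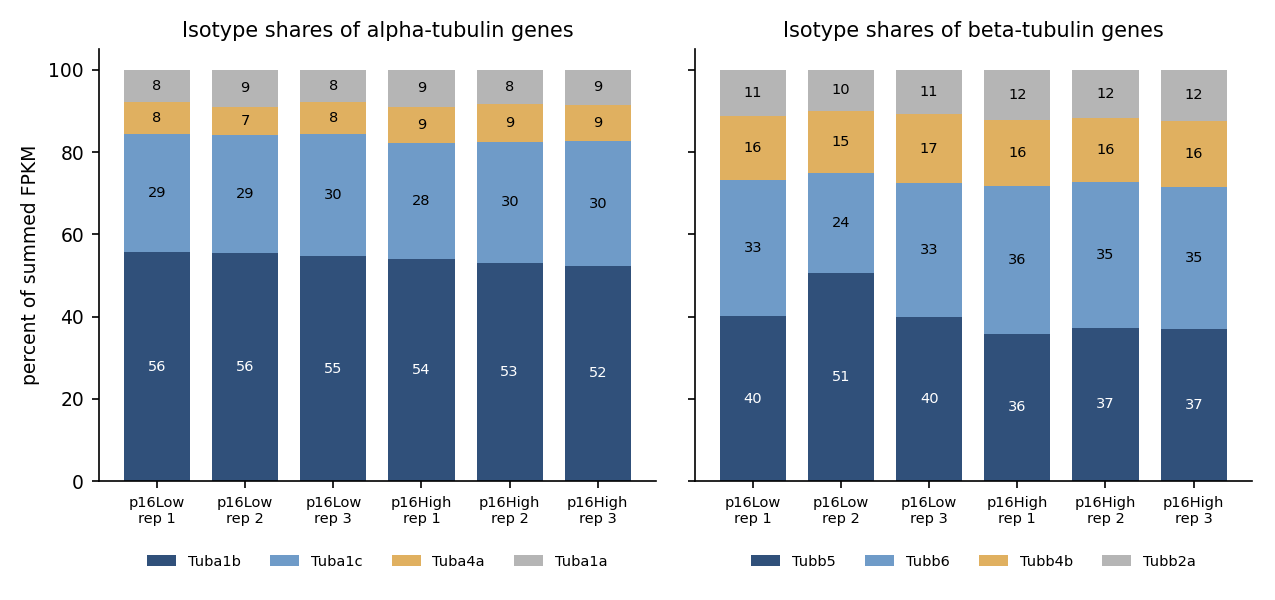
Share of each isotype in the summed FPKM of the 4 alpha-tubulin genes (left) and the 4 beta-tubulin genes (right) in every library, in percent. Tubb5 makes up 50.6% of beta-tubulin in p16Low replicate 2, 39.9% to 40.1% in the other p16Low libraries and 35.8% to 37.3% in p16High, while Tuba1b makes up 52.4% to 55.6% of alpha-tubulin in all 6.

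The genes with a profile closest to that of Stmn1 were sought among 7569 tested genes outside the set with a mean of at least 5 FPKM, by the root mean square difference of log2(FPKM + 1) values centred on their mean over the 6 libraries. They were Birc5, a survivin gene of the chromosomal passenger complex, at 0.113, Pclaf, a partner of PCNA, at 0.182, the thymidine kinase gene Tk1 at 0.183, the kinetochore gene Spc24 at 0.264 and the ribonucleotide reductase gene Rrm2 at 0.269. By the same measure the tubulins ranged from 1.04 for Tubg1 and 1.09 for Tubb5 to 1.36 for Tubb6, and the median over the genes searched was 1.28. Birc5, Pclaf, Tk1 and Spc24 shared with Stmn1 its highest value in p16Low replicate 2, and Rrm2 did not. As that library stood apart, a highest value in it is not read as particular to these genes. The measure describes likeness over 6 libraries that fall into the 2 groups, so any gene that is much lower in p16High comes out close.

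**Figure D4:**
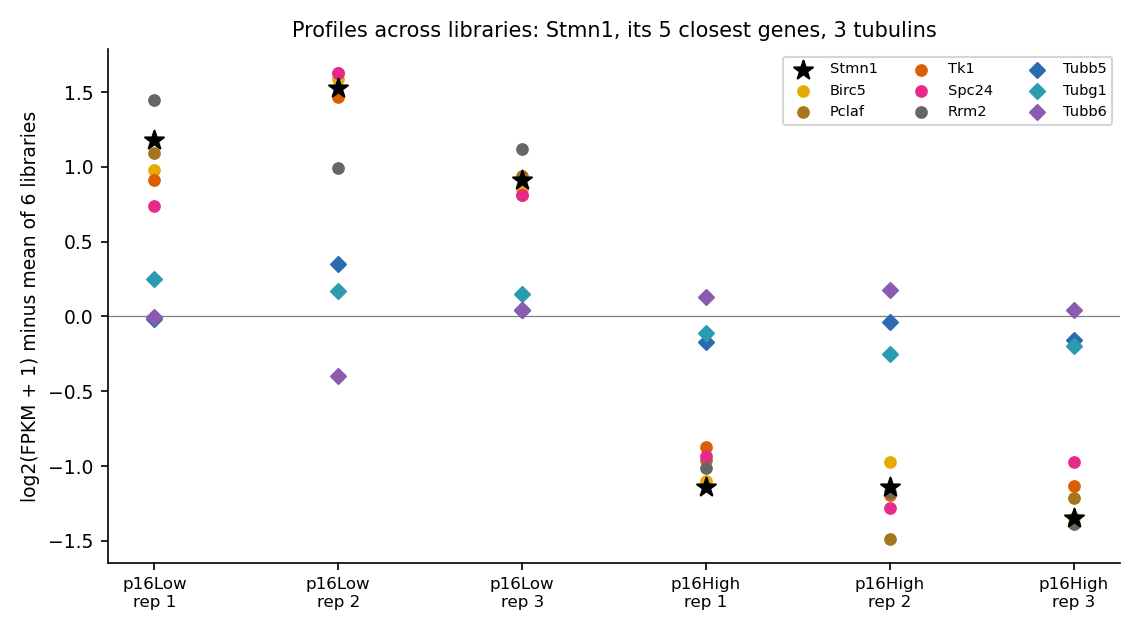
Log2(FPKM + 1) of Stmn1, the 5 genes closest to it and 3 tubulin genes, each minus its own mean over the 6 libraries. Stmn1 lies at 0.91 to 1.53 in p16Low and -1.35 to -1.14 in p16High, near the 5 genes, while Tubb5, Tubg1 and Tubb6 stay between -0.40 and 0.35.

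Other microtubule genes were read from 8 lists of 157 genes in all, of which 121 were tested. In limma over all genes, where 0.716% of tested genes fell, 8 fell and none rose, and these 8 are in 2 lists, the spindle proteins with mitotic kinesins and the kinases of stathmin. Of 22 spindle genes 14 were tested and 6 fell, with 13 of the 14 below 0 and a median log2 difference of -1.18. Some passed the filter on low values only through p16Low, such as Kif15, at 2.06 to 3.07 FPKM there and 0.468 to 0.574 FPKM in p16High. The calls, the count below 0 and the median therefore follow in part from the filter. Prc1, which bundles antiparallel microtubules in the midzone, stood at 6.59, 2.91 and 6.54 FPKM in p16Low and 0.873, 0.627 and 1.26 FPKM in p16High (log2 difference -1.67, SE 0.283, adjusted p = 0.0361). Nusap1, a spindle microtubule binder, had a difference of -1.60 (adjusted p = 0.016), Tpx2, which activates Aurora A on the spindle, of -1.20 (adjusted p = 0.0383), and the kinesin gene Kif15 of -1.20 (adjusted p = 0.0255). Unlike Stmn1, Prc1, Nusap1 and Tpx2 had their lowest p16Low value in replicate 2. No spindle gene passed when any 1 library other than p16Low replicate 2 was left out, and 12 fell without p16Low replicate 2. Over all 10895 tested genes, 14 to 26 fell in the former fits and 204 in the latter. The count of spindle genes was 6 in limma-voom, 2 with at least 1 FPKM required in all 6 libraries and 0 with no filter on low values.

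Of 7 tested kinases of stathmin 2 fell in limma, both of them kinases of mitosis; in limma-voom 1, Cdk1, fell, and with no filter on low values neither passed. Cdk1 stood at 25.0, 25.3 and 18.5 FPKM in p16Low and 6.47, 4.89 and 6.04 FPKM in p16High (log2 difference -1.81, SE 0.186, adjusted p = 0.00384). Aurkb, the Aurora B kinase, had a difference of -1.28 (SE 0.214, adjusted p = 0.0351). Cdk1 passed without any 1 library, and Aurkb passed in these fits only without p16Low replicate 2.

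The lists for folding, modifying or moving along interphase microtubules held no gene past the threshold over all 6 libraries. Among the 23 tested genes of tubulin folding and autoregulation, neither limma nor limma-voom called any, and an unadjusted p under 0.05 occurred in 0 of them with either tool. Cct5 and Cct8, subunits of the chaperonin that folds tubulin, stood at 393 ± 20.1 against 396 ± 12.2 FPKM and at 340 ± 29.7 against 339.6 ± 20.9 FPKM (p16Low against p16High, SD, n = 3). None of 17 tested genes of the gamma-tubulin ring complex and augmin passed in either, with an unadjusted p under 0.05 in 2 by limma and 1 by limma-voom. The most abundant, the augmin genes Haus8 and Haus4, stood at 29.2 ± 6.73 against 27.3 ± 3.85 FPKM and 28.4 ± 3.56 against 21.8 ± 1.53 FPKM.

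The 13 tested genes of tubulin modification and the 25 cargo motor genes likewise gave 0 calls and 0 unadjusted p under 0.05 with either tool. Svbp, the partner of the vasohibins that remove the tail tyrosine, and the deacetylase gene Sirt2 stood at 67.0 ± 20.4 against 58.4 ± 4.10 FPKM and 55.1 ± 5.01 against 59.7 ± 6.12 FPKM. The dynein light chain genes Dynlrb1 and Dynll1 stood at 247 ± 59.3 against 217 ± 12.9 FPKM and 245 ± 64.4 against 215 ± 11.2 FPKM, with p16Low replicate 2 the highest library in both. Of 21 tested genes of interphase microtubule binding and severing none passed in either, with an unadjusted p under 0.05 in 1 by limma and 2 by limma-voom. Mtus1 and Mapre1, which encodes the plus-end protein EB1, stood at 79.3 ± 23.5 against 77.2 ± 5.24 FPKM and 67.3 ± 8.35 against 67.7 ± 1.45 FPKM. Fignl1, of the family of severing enzymes and chosen after its values were seen, passed with median-of-ratios scaling and without p16Low replicate 2 (log2 difference -1.18, adjusted p = 0.0712 over all 6 libraries). In these 2 fits 96 of 10887 and 204 of 10895 tested genes fell.

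Of the 14 other stathmin and tubulin genes, Tubd1, the delta-tubulin of centrioles, was the 1 tested, at 5.23 ± 1.18 FPKM in p16Low and 5.93 ± 1.61 FPKM in p16High. Stmn2, Stmn3, Stmn4, Tubb1, Tuba3a, Tuba3b and Tubal3 were listed at 0 in all 6 libraries. Tubb3, the beta-tubulin of neurons, stood at 0.425 to 1.13 FPKM. Of the 4 stathmin genes, Stmn1 to Stmn4, only Stmn1 had reads.

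**Figure D5:**
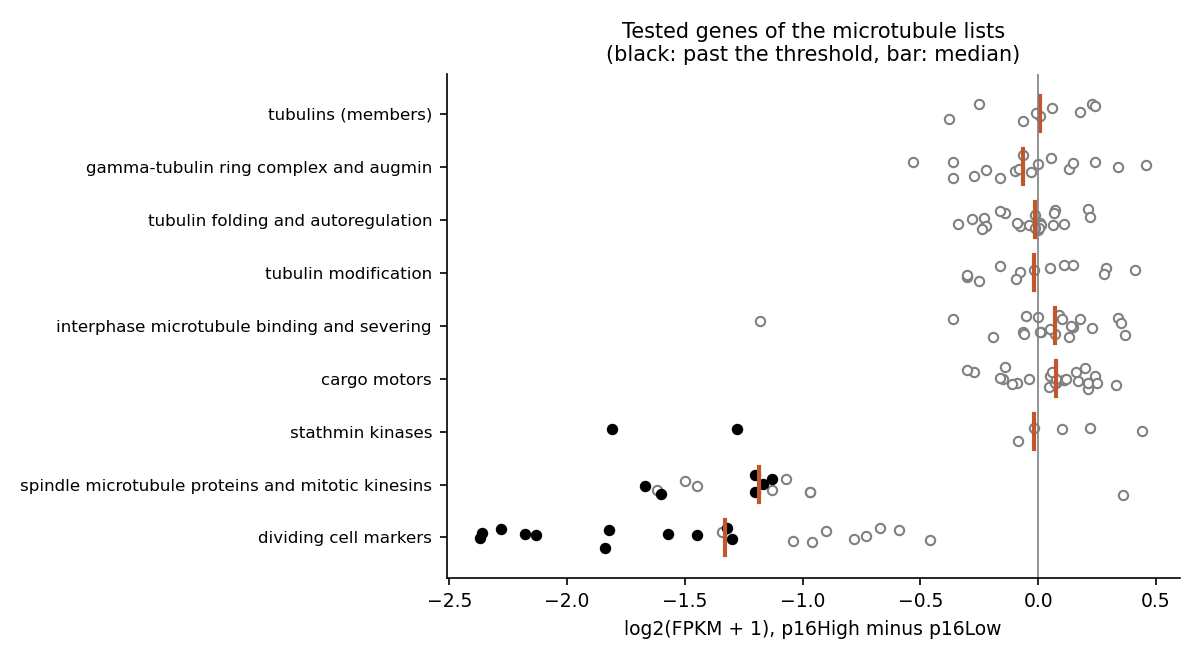
Difference in log2(FPKM + 1), p16High minus p16Low, of the 9 tubulins, of the tested genes in 7 microtubule lists and of markers of dividing cells, leaving out the list of other stathmins and tubulins with its 1 tested gene; black points passed the threshold and bars are list medians. The medians lie at -1.18 for spindle genes and -1.33 for markers of dividing cells, and between -0.063 and 0.075 for the 9 tubulins and the other lists drawn. Some spindle genes and markers of dividing cells passed the filter on low values through p16Low alone.

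Markers of dividing cells moved with Stmn1. Of 20 tested, 11 fell and none rose in limma, where 0.716% of all tested genes fell, all 20 were below 0, and the median was -1.33. The count was 9 in limma-voom, 7 with at least 1 FPKM required in all 6 libraries and 2 with no filter on low values. Some of the 20 passed the filter only through p16Low, such as Ccnb1, at 2.73 to 6.46 FPKM there and 0.481 to 0.735 FPKM in p16High. The summed level of the 20 markers ran from 336 to 435 FPKM in p16Low and from 159 to 171 FPKM in p16High. Rrm2, at 25.5 ± 4.54 against 4.10 ± 0.666 FPKM, and Top2a, a topoisomerase of dividing cells, at 18.1 ± 3.95 against 2.69 ± 0.410 FPKM (SD, n = 3), had the most negative differences, followed by Birc5 at -2.28 and Ccna2, cyclin A2, at -2.18 on the log2 scale. In bulk RNA, fewer cells with a transcript and less of it in each cell cannot be told apart. With 1 library left out, 18 fell without p16Low replicate 2 and 6 without any 1 of the other 5. Over all 10895 tested genes these fits gave 204 lower without p16Low replicate 2 and 14 to 26 without another library.

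The summed level of 7 B-cell markers was also lower in every p16High library. It ran from 193 to 215 FPKM in p16Low and from 104 to 174 FPKM in p16High. The 5 tested gave 0 calls and 5 unadjusted p under 0.05 with either tool. Without p16Low replicate 2, Cd79a and Ms4a1 passed in limma, where 204 of all 10895 tested genes fell. Igkc and Ighm led at 122 ± 17.0 against 81.9 ± 25.8 FPKM and 43.0 ± 5.18 against 28.8 ± 9.08 FPKM. The part of B cells and of dividing cells in the Stmn1 difference was not tested.

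Markers of other cells were near 0 in several lists. The summed T and NK markers, led by Cd3g and Cd3d, reached at most 0.401 FPKM, with Trac, Cd4, Ncr1 and Klrb1c listed at 0. Mesothelial and stromal markers, led by Krt18 and Krt19, reached at most 0.367 FPKM, with Msln, Upk3b, Col1a2 and Col3a1 listed at 0. Mast cell and eosinophil markers, led by Cpa3 and Cma1, ran from 0.314 to 0.628 FPKM in p16Low and 1.38 to 3.69 FPKM in p16High, and Epx and Prg2 were listed at 0. Neutrophil markers, nearly all S100a8, ran from 28.4 to 50.7 FPKM and from 22.5 to 32.4 FPKM, while S100a9, Ly6g and Mpo were listed at 0. Dendritic cell markers, nearly all Cd209a, ran from 8.30 to 10.0 FPKM in p16Low and from 14.7 to 25.0 FPKM in p16High. Cd209a alone stood at 8.36 ± 0.848 against 18.2 ± 4.63 FPKM. Zbtb46 came next and overlapped, at 0.645 to 0.790 against 0.652 to 1.77 FPKM. Flt3, Xcr1 and Clec9a reached at most 0.195 FPKM, and Siglech was listed at 0. Red cell and platelet markers were nearly all Pf4, which macrophages also express, at 8057 ± 2139.5 against 5364 ± 638 FPKM. Of these lists 3 genes were tested, S100a8, Cd209a and Pf4, with 0 calls and 2 unadjusted p under 0.05 in limma and in limma-voom alike. Without p16Low replicate 2, Cd209a passed in limma, where 97 of all 10895 tested genes rose. The part of these cells in the Stmn1 difference was not tested.

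Promoter letters were read for the 2 beta-tubulin genes below because both hold CCAAT boxes, common in promoters of cell cycle genes, and have log2 differences of -0.25 (Tubb5) and -0.01 (Tubb4b). They are the 250 bases before the start of transcription from RefSeq on GRCm38.p6, both on the minus strand, at chr17:35838302-35838551 for Tubb5 and chr2:25224703-25224952 for Tubb4b. Capitals mark CCAAT and TTTGAA, the letters of the cell cycle genes homology region, on either strand.
Tubb5: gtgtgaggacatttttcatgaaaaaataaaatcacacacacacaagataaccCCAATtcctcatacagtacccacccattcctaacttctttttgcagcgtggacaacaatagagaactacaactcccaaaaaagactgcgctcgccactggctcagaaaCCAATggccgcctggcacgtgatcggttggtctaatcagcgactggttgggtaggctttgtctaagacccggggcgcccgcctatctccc
Tubb4b: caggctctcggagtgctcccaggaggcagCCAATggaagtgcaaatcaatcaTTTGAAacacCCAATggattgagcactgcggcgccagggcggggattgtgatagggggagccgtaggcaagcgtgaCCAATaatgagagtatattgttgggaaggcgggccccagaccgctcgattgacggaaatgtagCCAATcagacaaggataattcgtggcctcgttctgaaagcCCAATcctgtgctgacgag

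Tubb5 held 2 CCAAT matches and no TTTGAA, and Tubb4b held 5 CCAAT matches and 1 TTTGAA, with none overlapping. Among 32851 promoters of the same length, 33.8% held CCAAT on either strand and 5252 held TTTGAA. Tubb4b stood at 98.0 ± 6.85 FPKM in p16Low and 97.2 ± 2.70 FPKM in p16High (SD, n = 3). RefSeq promoter entries matched 7 of the 10 genes, all but Stmn1, Tubg1 and Tubb6. Among these 7, Tuba1a and Tuba1c also held 1 CCAAT match each, with log2 differences of 0.06 and 0.0078.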

How the data were processed

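Per the file headers, the deposited table holds 1 FPKM value for each gene and library. Per the submitters' processing notes the tools were TopHat2 2.0.12, Bowtie2 2.2.3 and HTSeq 0.6.1, with no role, setting or genome build given. GENCODE M21 (GRCm38) holds 54494 of the gene IDs, and start and end matched for 98.3% of these, which is why GRCm38 positions are printed. With the annotated mean transcript length, 96.1% of the 22566 genes above 0 gave whole reads within 0.001 in every library, and the other 880 did so at a length found by search, where several lengths fitted, so their reads are less certain; of the members this holds for Tubb6. These reads served for depth and limma-voom.

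Genes with at least 1 FPKM in 3 or more libraries were tested on log2(FPKM + 1), which pulls differences of low genes towards 0. As each group held 3 libraries, a gene could pass this filter through 1 group alone. limma 3.58.1 (R 4.3.3) was used with group as the only term (eBayes, trend on), p-values were adjusted by Benjamini-Hochberg over all 10895 genes, and the code was tested on simulated data. The members and lists were chosen with earlier results of these data known. Named genes outside the set were, of each list, up to 4 called genes with the largest difference, or the 2 most abundant where none was called. Windows were matched exactly, on both strands, to all GENCODE transcripts, for the transcript with the longest coding sequence of each gene. The alternatives tried were a replicate block, each library left out, limma-voom, a pseudocount of 0.1, no filter, a stricter filter and median-of-ratios scaling. Some sequences and 1 marker are not reported here.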

Additional observations from a re-analysis of the deposited data

How the results depend on the processing

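The count of members past the threshold was 1, Stmn1, under all 12 alternatives; since the members were chosen on this comparison with Stmn1 known as one of its largest differences, this is a description and no support for it. Each of the 120 member differences and each of the 48 isotype shares moved by less than 1 SD between replicates. With 1 library left out this had to be so, as that library also sets the SD. The other filters and the replicate block left the member differences unchanged. Nothing is therefore read from these counts. Without p16Low replicate 2 the log2 difference of Tubb5 went from -0.25 to -0.14 and that of Tubb6 from 0.24 to 0.10. At least 4 of the 5 genes closest to Stmn1 were shared under each alternative tried, a check chosen after seeing the data. The count over all genes was 97; it was 9 with no filter on low values and 17 to 301 with 1 library left out, the extremes being p16High replicate 2 and p16Low replicate 2. The count in the microtubule lists was 8; it was 4 with at least 1 FPKM in all 6 libraries, 0 with no filter (limma, 23 of 147 at an unadjusted p under 0.05) and 1 to 15 with 1 library left out. Deviations of same-numbered libraries from their group means correlated at -0.189, -0.173 and 0.0143, and those of differently numbered ones at -0.196 to 0.244. With 3 libraries in a group, these values cannot tell whether the numbers pair the libraries. With the replicate block 67 genes passed. At these depths 1 read on a gene of 1 kb is 0.0479 to 0.0605 FPKM, and the 95% intervals of the tubulin differences reach from -0.70 to 0.57.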
